A study of Arabidopsis thaliana with 12 samples.

Results

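NdhS (AT4G23890), CRR21 (AT5G55740), Cpn60beta4 (AT1G26230) and PIFI (AT3G15840) are 4 nuclear genes of Arabidopsis that serve the chloroplast NADH dehydrogenase-like complex, as a subunit, an editing factor, a chaperonin and an interacting protein. They were chosen as the genes among these names for which the platform annotation has a probe that lists only that gene. Each had 1 such probe, so they account for 4 of the 691 genes with such a probe, on arrays of 3439 probes in all. They were named after an earlier analysis of the same values in which all 4 had passed the test between the groups, so that they pass it again over 12 samples is given by the choice and is no independent evidence.

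The chloroplast NADH dehydrogenase-like complex, NDH, takes electrons from ferredoxin at the stromal side of photosystem I and returns them to the plastoquinone pool. This is one route of cyclic electron flow, in which electrons circle around photosystem I and protons are moved into the thylakoid lumen without net formation of NADPH. The complex is built from subunits encoded in the plastid and in the nucleus, forms supercomplexes with photosystem I, and depends on nuclear factors for the editing of its plastid transcripts and for the folding of its subunits.

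NdhS is the subunit of NDH that lies on the ferredoxin side of the complex. CRR21 is a pentatricopeptide repeat protein needed for editing of the plastid ndhD transcript, which encodes another subunit. Cpn60beta4 is a divergent chaperonin subunit of the chloroplast that is needed for folding of the subunit NdhH. PIFI is a chloroplast protein named for the rise in chlorophyll fluorescence after the light is turned off, a signal linked to electron donation by NDH, which is missing in its mutant. The mutated protein of the study, PSI-E2, is a stromal subunit of photosystem I, and subunits of this kind take part in docking ferredoxin.

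Total RNA was measured on arrays in 6 samples of the psae2 mutant, which has no PSI-E2 according to the labels, and in 6 samples of the wild type (WT). Both groups are Arabidopsis thaliana of the ecotype Columbia 0, and samples are numbered 1 to 6 within each group. The kind of allele, the tissue, the age, the growth conditions, any pooling of plants and what a number stands for are not given in these sources. None of the 8 tissue markers looked up, among them those of root, seed, flower and green leaf, had a probe that lists it, so the tissue was not checked. No probe of the annotation used here lists PSAE2, the gene of PSI-E2, so the labels were not checked against it. In such bulk RNA, a lower level per cell and fewer cells that express a gene cannot be told apart.

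Deposited intensities are linear values between 0 and 100 and summed to between 2972 and 3610 per array, where an array means the values of 1 sample. Their medians ranged from 0.304 to 0.448, so the arrays were brought to a common scale by quantile normalization of log2 values, and levels below are such normalized log2 intensities unless called deposited. Probes differ in brightness for technical reasons, so levels are compared between samples and not between genes. In each genotype, samples 1 and 2 were more alike than samples of different pairs, as were 3 and 4, and 5 and 6. Their deviations from the group means correlated at 0.24 to 0.71 within such pairs and at -0.68 to -0.12 between other samples of a group. Equally numbered psae2 and WT samples correlated at 0.34 to 0.53. The pairs may be repeats of 1 sample, but no known repeat was there for comparison. Each gene is therefore given with 2 adjusted p-values from limma, adjusted over all 3009 probes or genes tested (entries): the 12-sample p, which takes all samples as independent, and the pair-mean p, from a fit to the 3 pair means of each group. Means are over the 3 pair means.

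In brief, NdhS and CRR21 were lower and Cpn60beta4 and PIFI were higher in psae2, each by less than 1 on the log2 scale. All 4 passed the threshold of 0.05 in the 12-sample fit, where 22.3% of all entries did, and 0 of 4 passed in the pair-mean fit, where 2.63% of all entries did. When the replicate number is added to the 12-sample fit as a block, 4 of 4 passed and 33.6% of all entries did, and when the pair is added to the pair-mean fit, 0 of 4 passed and 1.46% of all entries did. The adjusted p from limma in the latter was 0.149 for NdhS, 0.122 for CRR21, 0.0747 for Cpn60beta4 and 0.161 for PIFI. All 4 were above the detection floor in 12 of 12 samples, so their differences do not rest on floor values.

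**Figure D1:**
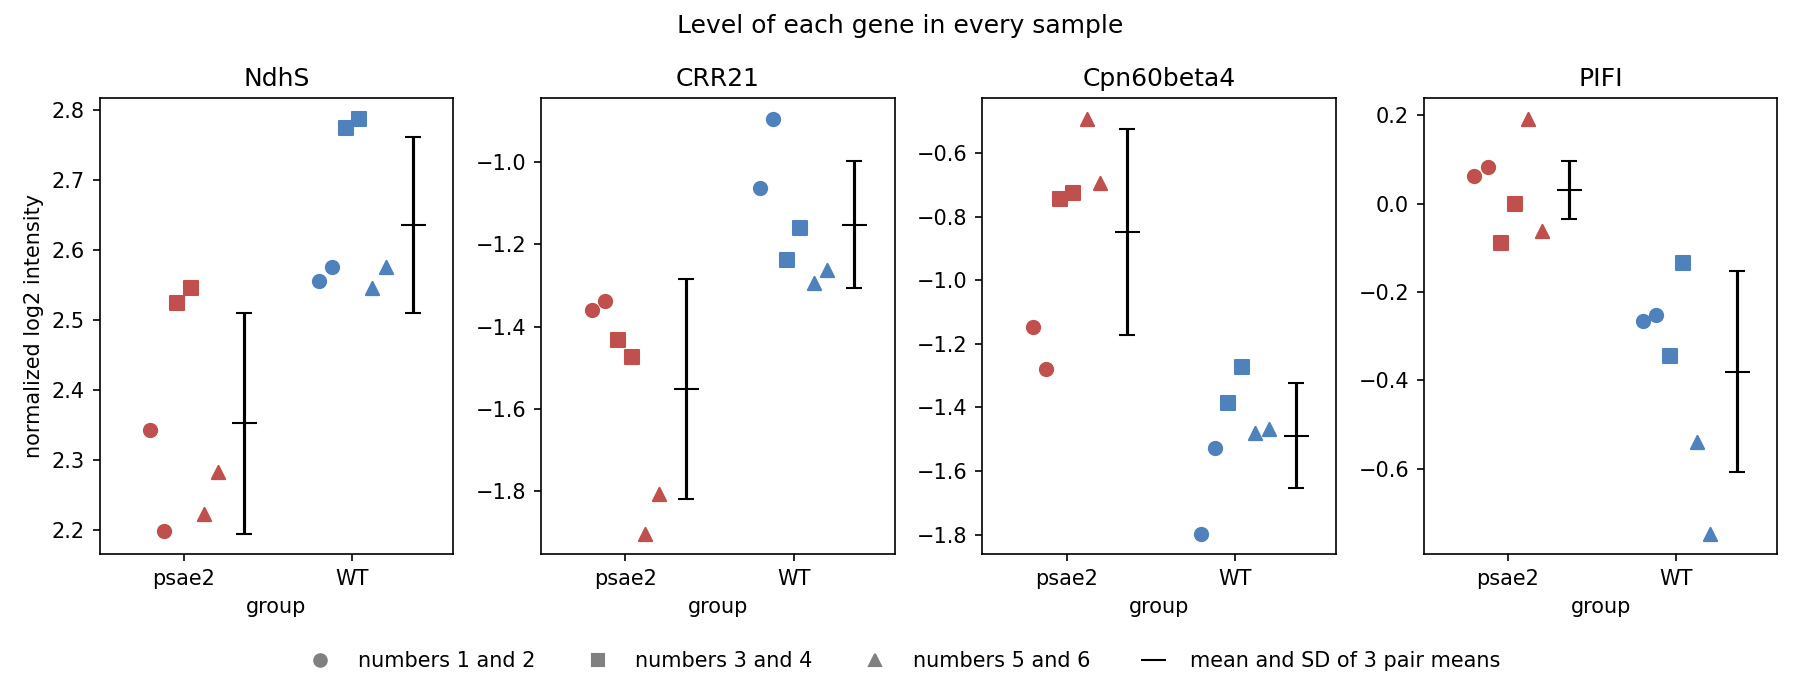
Normalized log2 intensity (y axis) of NdhS, CRR21, Cpn60beta4 and PIFI in the psae2 and WT samples, a panel for each gene with its own y axis; circles are numbers 1 and 2, squares 3 and 4, triangles 5 and 6, and the black bars are the mean and SD of the 3 pair means. The psae2 samples lie at or below the lowest WT sample for NdhS and below it for CRR21, and above the highest WT sample for PIFI and, except for sample 2, for Cpn60beta4; samples of a pair of numbers mostly lie close together.

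For NdhS, the ferredoxin-side subunit, the deposited intensity was 4.43 at the lowest, 5.09 at the median and 6.30 at the highest in the 6 psae2 samples, against 5.06, 6.26 and 6.95 in the 6 WT samples. On this scale the groups overlapped, and numbers 3 and 4 were the brightest in both. After normalization the level was 2.35 ± 0.16 in psae2 and 2.64 ± 0.13 in WT (SD, n = 3). The highest psae2 value, 2.55 in sample 4, met the lowest WT value, 2.55 in sample 5, so the groups touched at the edge.

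The log2 difference of NdhS was -0.28 (SE 0.084 over 12 samples), which makes WT 1.22-fold higher. In limma its adjusted 12-sample p was 0.0293 and its adjusted pair-mean p 0.312. The difference was about as wide as the spread between pairs of numbers within a group: pair means spanned 0.28 in psae2 and 0.22 in WT. At the same time NdhS was the steadiest of the 4 genes from number to number. It was lower in psae2 at 6 of 6 numbers, by -0.38 to -0.21, and its pair means differed by -0.30, -0.25 and -0.31 for numbers 1 and 2, 3 and 4, and 5 and 6.

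The levels of NdhS in the pairs show the same order in both genotypes. They were 2.27, 2.53 and 2.25 in psae2 and 2.57, 2.78 and 2.56 in WT, in the order of the pairs of numbers, so that numbers 3 and 4 stood above the others in each. The call of NdhS over 12 samples was lost without psae2 sample 2, 5 or 6 or WT sample 3 or 4, with adjusted p of 0.0547 to 0.0671, and when both genotypes were fitted without numbers 1 and 2 or without 5 and 6 (both 0.107). On the deposited scale the difference was -0.20 (adjusted p = 0.232), and on median-centred arrays -0.41 (0.0221).

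For CRR21, the editing factor for ndhD, the deposited intensity was 0.247 at the lowest, 0.386 at the median and 0.480 at the highest in psae2, against 0.347, 0.403 and 0.572 in WT. The deposited values of the groups overlapped. The normalized level was -1.55 ± 0.27 in psae2 and -1.15 ± 0.15 in WT (SD, n = 3). After normalization the highest psae2 value, -1.34 in sample 2, lay just under the lowest WT value, -1.29 in sample 5, so the groups did not overlap.

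The log2 difference of CRR21 was -0.40 (SE 0.11 over 12 samples), and WT was 1.32-fold higher. In limma the adjusted 12-sample p was 0.0258 and the adjusted pair-mean p 0.27. CRR21 was lower in psae2 at 6 of 6 numbers, but by amounts that ran from -0.61 at number 5 to -0.20 at number 3. The level itself moved with the numbers in both genotypes. It was -1.35, -1.45 and -1.85 in psae2 and -0.98, -1.20 and -1.28 in WT for numbers 1 and 2, 3 and 4, and 5 and 6, so the lowest level of each genotype was at 5 and 6.

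How far apart the groups of CRR21 lay depended on the scaling. Its difference was -0.23 on the deposited scale (adjusted p = 0.407) and -0.43 on median-centred arrays (0.0215). The ratio of deposited intensities, psae2 over WT, was 0.984 at number 3 and 0.712 at number 5, the extremes of the 6 numbers. The call over 12 samples was also lost without psae2 sample 6 or WT sample 1 or 2 (adjusted p 0.0521 to 0.0548), and when both genotypes were fitted without numbers 3 and 4 (0.112).

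For Cpn60beta4, the chaperonin subunit, the deposited intensity was 0.498 at the lowest, 0.607 at the median and 0.685 at the highest in psae2, against 0.299, 0.329 and 0.383 in WT. On the deposited scale every psae2 sample was brighter than every WT sample. The normalized level was -0.85 ± 0.32 in psae2 and -1.49 ± 0.17 in WT (SD, n = 3). After normalization the groups overlapped by a small margin, since psae2 sample 2 was at -1.28 and WT sample 4 at -1.27.

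Cpn60beta4 had the widest difference of the 4 genes, 0.64 on the log2 scale (SE 0.14 over 12 samples) or 1.56-fold. In limma the adjusted 12-sample p was 0.00595 and the adjusted pair-mean p 0.163. With the pair of numbers of each group as a random block it was 0.0493, while NdhS, CRR21 and PIFI did not pass in that fit (0.147, 0.108 and 0.137), in which 6.02% of all entries passed. It was higher in psae2 at 6 of 6 numbers, by 0.25 at number 2 to 0.99 at number 5. The call over 12 samples was kept when any 1 sample was left out (adjusted p 0.00192 to 0.0142), and was lost when both genotypes were fitted without numbers 3 and 4 (0.0628) or without 5 and 6 (0.0642).

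The wide spread of Cpn60beta4 came mostly from psae2. Its pair means there were -1.21, -0.74 and -0.59 for numbers 1 and 2, 3 and 4, and 5 and 6, a span of 0.62, while in WT they were -1.66, -1.33 and -1.47, a span of 0.33. A wider span in psae2 is also the general case: the median span over all entries was 0.41 in psae2 and 0.31 in WT. Numbers 1 and 2 were the lowest in both genotypes. The difference was 0.83 on the deposited scale (adjusted p = 0.000136) and 0.63 on median-centred arrays (0.00699). In the pair-mean fit these adjusted p became 0.0603 and 0.17.

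For PIFI, the protein of the fluorescence rise after illumination, the deposited intensity was 0.931 at the lowest, 1.05 at the median and 1.18 at the highest in psae2, against 0.511, 0.81 and 0.912 in WT. The groups did not overlap on this scale, with a narrow gap. The normalized level was 0.03 ± 0.07 in psae2 and -0.38 ± 0.23 in WT (SD, n = 3). The groups did not overlap after normalization either, with psae2 sample 3 lowest at -0.09 and WT sample 4 highest at -0.13.

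The log2 difference of PIFI was 0.41 (SE 0.1 over 12 samples), or 1.33-fold. In limma the adjusted 12-sample p was 0.0137 and the adjusted pair-mean p 0.204. Here the spread lay in WT. The pair means of psae2 were 0.07, -0.04 and 0.06 for numbers 1 and 2, 3 and 4, and 5 and 6, whereas those of WT were -0.26, -0.24 and -0.64, so that WT samples 5 and 6 stood below the others.

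PIFI was therefore higher in psae2 at 6 of 6 numbers, but the pair difference was 0.71 at numbers 5 and 6 and 0.33 and 0.19 at 1 and 2 and at 3 and 4. Its call over 12 samples was kept when any 1 sample was left out (adjusted p 0.0108 to 0.0309). On median-centred arrays the difference was 0.30 and did not pass (0.0768), and psae2 was then higher at 5 of 6 numbers. On the deposited scale it was 0.50 (0.0267).

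**Figure D2:**
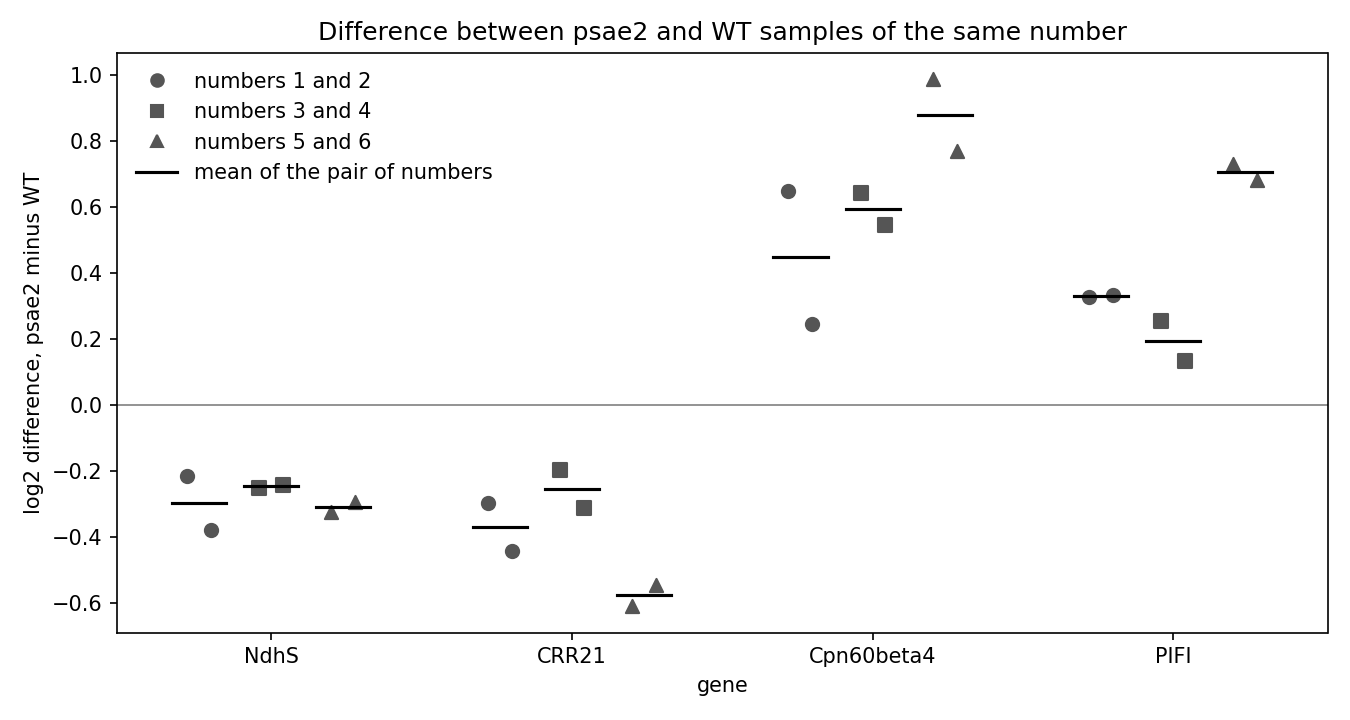
Log2 difference, psae2 minus WT (y axis), between samples of the same number for each of the 4 genes; circles are numbers 1 and 2, squares 3 and 4, triangles 5 and 6, and black lines are the mean of each pair of numbers. NdhS stays between -0.38 and -0.21 at all 6 numbers, while CRR21, Cpn60beta4 and PIFI are farthest from 0 at numbers 5 and 6.

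Side by side, the 4 genes had their widest pair difference at numbers 5 and 6, for NdhS by a small margin. This was also the most frequent place among all entries: 49.0% of the 3009 entries had their widest pair difference there, against 28.0% at numbers 1 and 2 and 23.0% at 3 and 4. The median size of the pair difference over all entries was 0.30 at numbers 5 and 6, 0.21 at 1 and 2 and 0.21 at 3 and 4. Whether the 4 genes differ in this from other entries was not tested.

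Their agreement in sign across numbers also has a background. The 4 genes had 1 direction at 6 of 6 numbers, which 35.5% of all entries had. The groups did not overlap after normalization for 2 of the 4 genes, CRR21 and PIFI, and for 12.4% of all entries. Since the genes were chosen from those that had passed, nothing is read from these counts.

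The sizes are given as a description only, since genes chosen for having passed tend to have wide differences. The median absolute log2 difference was 0.41 over the 4 genes and 0.21 over all 3009 entries. The difference of Cpn60beta4 was wider than that of 91.6% of entries, those of PIFI and CRR21 were wider than those of 78.0% and 77.0%, and that of NdhS was wider than that of 62.6%. Of all entries, 11.9% passed the 12-sample fit as higher in psae2 and 10.4% as lower. Of the calls, 53.4% were increases on the quantile scale, 84.0% on the deposited scale and 40.9% on median-centred arrays. The log2 difference of the median entry was 0.17 on the deposited scale, 0.01 on the quantile scale and -0.03 on median-centred arrays, so directions are relative to that shift. The signs of the 4 differences were the same under the 3 scalings.

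**Figure D3:**
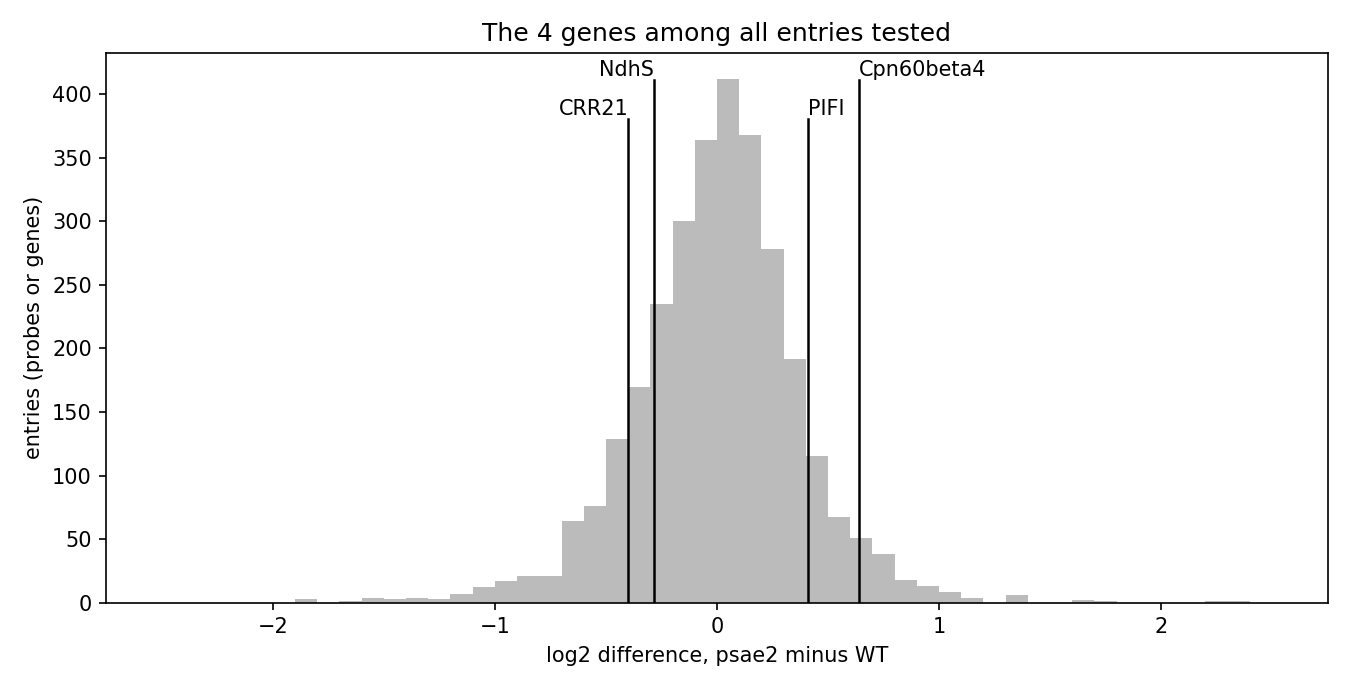
Histogram of the log2 difference, psae2 minus WT (x axis), of the 3009 entries tested, with the number of entries on the y axis and vertical lines at the 4 genes. NdhS at -0.28, CRR21 at -0.40 and PIFI at 0.41 lie within the body of the distribution, and Cpn60beta4 at 0.64 lies farther out.

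Few other genes of the pathway could be read. Of 82 genes listed for NDH subunits, NDH assembly, plastid editing and RNA factors, other cyclic electron flow and the ferredoxin side, and plastid chaperonins, 70 could be matched to the gene table used for names. The other 12, the plastid-encoded subunits ndhA to ndhK and MORF2, were not looked up on the arrays. Of the 70, 11 had a probe of their own, the 4 genes included, and 5 were listed only by probes shared with other genes. Among the 20 NDH subunits matched, of 31 listed, only NdhS and NdhN had a probe of their own. NdhN was under the floor on all 12 arrays, with a highest deposited intensity of 0.0235, and was not tested. CRR41, an assembly factor of NDH, and AT3G22690 were listed at 0 on 12 of 12 arrays, and the editing factor OTP85 was listed at 0 on 11.

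That left NTRC, Cpn60beta3 and AT3G22150 as tested genes beside the 4, and 0 of the 3 passed in limma in the 12-sample or the pair-mean fit. Before adjustment 1 of the 3, NTRC, was under 0.05 in the 12-sample fit, with a limma p of 0.0308. NTRC, a chloroplast thioredoxin reductase with a thioredoxin domain of its own, had a level of -1.25 ± 0.20 in psae2 and -1.47 ± 0.03 in WT (SD, n = 3). Its log2 difference was 0.22 (adjusted p = 0.101 in the 12-sample fit and 0.429 in the pair-mean fit). On the deposited scale it was 0.42 and passed in the 12-sample fit (0.00586). NTRC was highest in psae2 samples 5 and 6, at -1.06 and -0.996, against -1.54 to -1.39 in all WT samples.

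Cpn60beta3 is a chaperonin subunit of the same family as Cpn60beta4. Its level was -1.27 ± 0.50 in psae2 and -1.08 ± 0.30 in WT (SD, n = 3), a log2 difference of -0.19 (adjusted p = 0.535 in the 12-sample fit and 0.754 in the pair-mean fit). Its pair differences were -0.02, 0.11 and -0.67, so the negative mean rests on numbers 5 and 6. Left out of both groups, these gave a difference of 0.05. The difference between Cpn60beta3 and Cpn60beta4 in their response was not tested. AT3G22150 had a level of -2.91 ± 0.04 in psae2 and -3.04 ± 0.21 in WT (SD, n = 3), a log2 difference of 0.13 (adjusted p = 0.417 and 0.661).

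**Figure D4:**
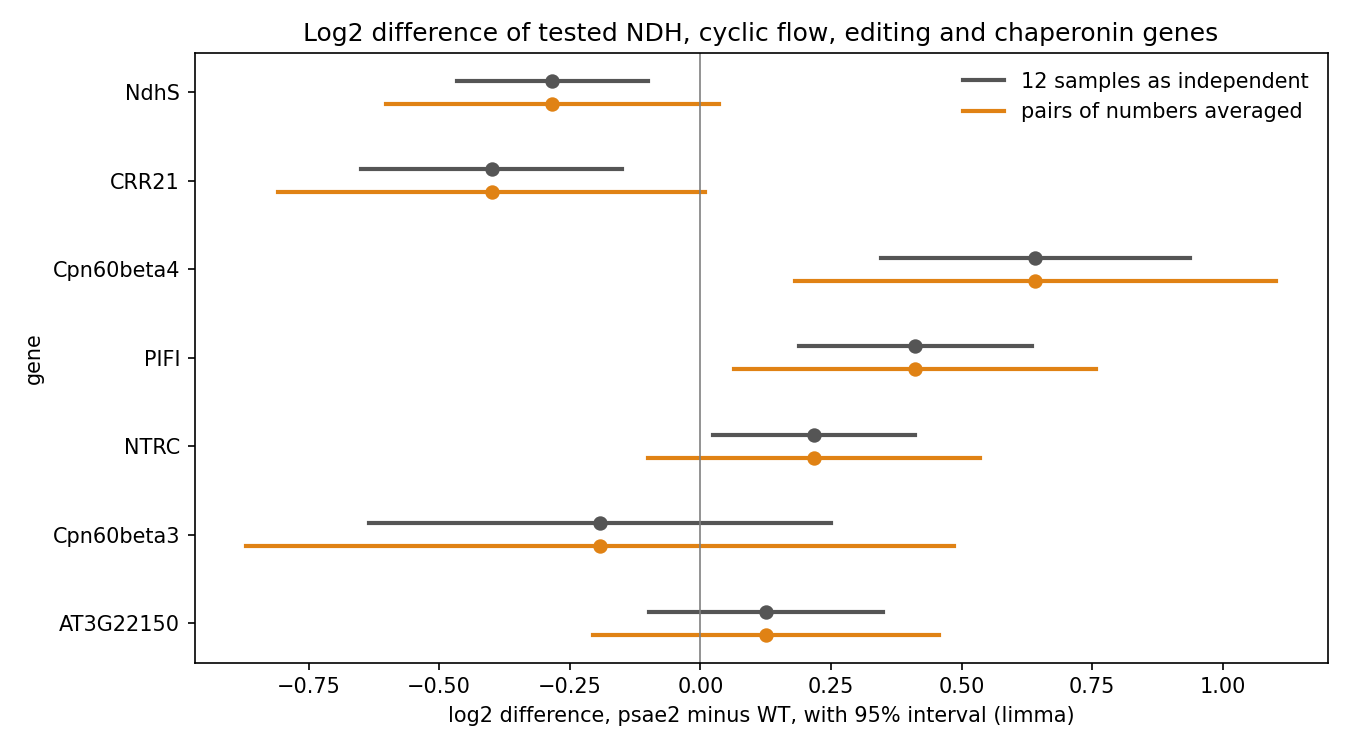
Log2 difference, psae2 minus WT (x axis), with its unadjusted 95% interval from limma for the 7 genes tested in the pathway lists, from the 12-sample fit (grey, upper line) and the pair-mean fit (orange, lower line). In the pair-mean fit the intervals of NdhS (-0.60 to 0.04) and CRR21 (-0.81 to 0.01) include 0, and those of Cpn60beta4 (0.18 to 1.10) and PIFI (0.06 to 0.76) do not.

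The genes whose levels ran most like those of the 4 were taken from the other 601 genes with a probe of their own, by Pearson's r over 12 samples. Samples of a pair of numbers resembled each other and the genotypes differ, which can both raise r. Given after it is r between deviations from the group means. These deviations leave out the genotype difference but keep what samples of a pair or of the same number share. Both values are descriptions of the best of many. For NdhS the nearest were AT4G29120 (0.93, deviations 0.83), AT3G26580 (0.89, deviations 0.71) and AT2G28660 (0.86, deviations 0.71). For CRR21 they were AT5G16230 (0.96, deviations 0.92), AT3G15900 (0.95, deviations 0.90) and CCL (0.94, deviations 0.86).

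For Cpn60beta4 the nearest were AT1G50390 (0.95, deviations 0.82), GLDH, the enzyme of the last step of ascorbate synthesis (0.94, deviations 0.82), and AT4G24910 (0.93, deviations 0.90). For PIFI they were AT3G45770 (0.93, deviations 0.81), iqd32 (0.92, deviations 0.91) and AT4G03090 (0.89, deviations 0.81). Of these 12 genes, 0 passed in the pair-mean fit and 8 in the 12-sample fit of limma, and each of the 12 differed in the same direction as its partner, as the choice by r favours.

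None of the 4 genes was among the nearest of another. The closest relation among them ran in opposite directions: between CRR21 and Cpn60beta4, r was -0.87 over 12 samples and -0.69 between deviations from the group means. NdhS and CRR21, both lower in psae2, had an r of 0.64 over 12 samples and 0.18 between deviations. Cpn60beta4 and PIFI, both higher, had 0.65 and 0.01. The other deviations correlated at 0.05 for NdhS and PIFI, 0.38 for NdhS and Cpn60beta4 and 0.19 for PIFI and CRR21. These values rest on 12 samples that share pairs of numbers, and are descriptions.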

How the data were processed

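Arrays of total RNA from 6 psae2 and 6 WT samples were analysed, grouped by their titles. The values are intensity values as deposited by the authors; their background correction, scaling and array chemistry are not given in these sources. All 12 columns belonged to a sample. Values under the 5th percentile of an array's positive values (0.0638 to 0.105) were raised to it, then log2-transformed and quantile-normalized. The 429 probes under this floor on all 12 arrays were left out. The remaining 3010 probes (3009 entries, as 1 gene had 2 probes) were fitted in limma 3.58.1 (lmFit, eBayes; R 4.3.3), and p-values were adjusted over all entries by Benjamini-Hochberg. Figures were drawn with matplotlib 3.10.9. Gene names come from the platform annotation, matched by Entrez number to the RefSeq gene table (TAIR10.1), whose coordinates are not used.

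The genes and lists were chosen with earlier results of these data known. Named were the 4 genes, every listed pathway gene with a probe of its own, and the 3 genes most like each of the 4. The procedure was tested on simulated data.

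Deviations of equally numbered psae2 and WT samples from their group means correlated at 0.34 to 0.53 in 6 of 6 cases. The numbers thus appear to pair the samples, which comes from the data, as the labels do not explain the numbers. Neither the 12-sample fit nor the pair-mean fit uses this pairing unless a block is added. Within a group, pairs 1 and 2, 3 and 4, and 5 and 6 correlated at 0.24 to 0.71, other samples at -0.68 to -0.12; these pairs, which were averaged in the pair-mean fit, may be technical repeats. The 12-sample p-values, with or without the replicate number as a block, ignore this. They reflect only the spread between these samples, which may be technical. The number of arrays limits the precision. Alternatives changed the block, the repeats, the scaling, the floor, the filter, the variance model, the threshold and the samples.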

Additional observations from a re-analysis of the deposited data

How the results depend on the processing

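In the 12-sample fit 4 of the 4 genes passed. In the pair-mean fit 0 did, on the quantile scale, on median-centred arrays and on the deposited scale (the last 2 chosen after seeing the data), and 0 when that fit also had the pair as a block (a replicate block). With a random block for the pair 1 passed. It was also 1 at the stricter threshold of 0.01, and 1 when 1.5-fold was required. On the deposited scale it was 2, where 846 of the 3009 entries passed, and on median-centred arrays 3, where 707 passed. It was 2 when both genotypes lacked numbers 3 and 4, and likewise 5 and 6. Without numbers 1 and 2 it was 3. Leaving out 1 sample gave 2 to 4, the lowest without psae2 sample 6. The replicate number as a block changed no call of the 7 pathway genes tested. The adjusted p from limma were 0.00554 for NdhS, 0.00568 for CRR21, 0.00309 for Cpn60beta4 and 0.0148 for PIFI. Like the 12-sample fit, that fit takes samples of a pair of numbers as independent, although they may be technical repeats. None of the 4 differences changed sign in the 30 alternatives: they ranged from -0.41 to -0.20 for NdhS, -0.48 to -0.23 for CRR21, 0.51 to 0.83 for Cpn60beta4 and 0.26 to 0.52 for PIFI. Many of these could not change a sign. Changing only the block, the averaging of pairs, the variance model or the threshold leaves the difference as it was by construction. The higher floor and the fit without a filter also left the 4 differences unchanged. That the genes were chosen for having passed in these values also favours a kept sign in the rest. Cpn60beta3, which did not pass, turned to 0.0458 when numbers 5 and 6 were left out. Of all entries 671 passed. The count was 1010 with the replicate block, 181 with the random block, 79 in the pair-mean fit, 44 when a block was added to that, 306 at 0.01, 231 at 1.5-fold, 669 when numbers 1 and 2 were left out of both genotypes, 284 for 3 and 4, 516 for 5 and 6, and 552 to 668 for 1 sample. In the pair-mean fit it was 60 on median-centred arrays and 29 on the deposited scale. Stricter thresholds lower a count by construction. Leaving out a pair of numbers removes 4 samples each time. The cause of the changes in count was not tested there or elsewhere. Dim signal limited NdhN and other listed genes under the floor.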
